A study of Mus musculus with 15 samples.

Results

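The genes described here encode 9 proteins of the synaptonemal complex and the meiotic chromosome axis. They were taken by symbol from the gene list of the deposited matrices (Sycp1, Sycp2, Sycp3, Syce1, Syce2, Syce3, Tex12, Hormad1 and Hormad2), and all 9 were found among the 32285 genes. Their RNA was measured by single-cell RNA-seq (10x Genomics 3′ chemistry) in 15 testis libraries from DBA/2J male mice, an inbred strain with no engineered allele, at 1 mouse per library and 3 libraries per group. Mice in group T received JQ1, an inhibitor of the BET bromodomain proteins including the testis-specific BRDT, at 50 mg/kg daily by intraperitoneal injection for 3 wk and were 10 wk old when testes were taken. Mice in group R had the same dosing followed by 6 wk without drug and were 16 wk old. The vehicle groups VC-T and VC-R received daily injections of vehicle without JQ1 for 3 wk, and VC-R then had 6 wk without injections. VC-T and VC-R were 10 and 16 wk old. The untreated group UC was 15 wk old, so T and UC differed in age as well as in treatment. JQ1 was given to the whole animal and binds several BET proteins, and every group is a bulk dissociation of the testis with all germ cell stages together.

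In meiotic prophase I, homologous chromosomes condense along protein axes and are then held together along their length by the synaptonemal complex. SYCP2 and SYCP3 form the axial elements, which become the lateral elements once homologs synapse. HORMAD1 and HORMAD2 mark axes that have not yet synapsed and are largely removed on synapsis. SYCP1 spans the gap as the transverse filament, and SYCE1, SYCE2, SYCE3 and TEX12 build the central element in the middle. Axes form in leptotene, synapsis starts in zygotene and is complete in pachytene, and the complex comes apart in diplotene.

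All 9 genes lie on autosomes, and their positions are given on mouse build GRCm38 from GENCODE vM21. The lateral element genes are Sycp2 (chr2:178345293-178407685, minus strand) and Sycp3 (chr10:88459569-88473236, plus strand). The axis genes are Hormad1 (chr3:95559677-95587671, plus strand) and Hormad2 (chr11:4345814-4441105, minus strand). The transverse filament gene Sycp1 is at chr3:102818499-102936100 on the minus strand. The central element genes are Syce1 (chr7:140777229-140787852, minus strand), Syce2 (chr8:84872111-84888221, plus strand), Syce3 (chr15:89390174-89410503, minus strand) and Tex12 (chr9:50556819-50561325, minus strand). Genes overlapping Sycp1, Sycp3, Syce1, Syce2 and Tex12 all lie on the opposite strand, and no gene of the annotation overlaps a member on its own strand.

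Promoters were read from a RefSeq-derived table on GRCm38.p6, which holds 300 bases for each start (250 before to 50 after) and has an entry for all 9 genes. The letters TCCCGC, read on either strand and known as the core of E2F6 sites, occurred in the promoters of 5 of 9 members (Hormad1, Syce2, Sycp1, Sycp3 and Tex12), against 22% of the 27025 genes in the table. The MYB core AACNG occurred in 9 of 9 members and in 82.4% of genes. CCTCAG, the letters bound by STRA8, occurred in 6 of 9 members and in 29.4% of genes, and the cyclic AMP response core TGACGT in 0 of 9 and 8.37%. None of the 4 strings holds another. These counts describe the sequence only. The TCCCGC windows that lie before a RefSeq start are printed because these letters are shared by genes of different parts of the complex. They are written 5′ to 3′ along the strand of the gene, with TCCCGC or its reverse complement in capitals. They lie at chr3:95559570-95559599 for Hormad1, chr8:84871984-84872013 and chr8:84872212-84872241 for Syce2, chr10:88459428-88459457 for Sycp3 and chr9:50561396-50561425 for Tex12. The capitals start 95 bases before a RefSeq start of Hormad1 (97 before its other start), 115 before one start of Syce2 and 34 before its other start, 147 before that of Sycp3 and 145 before that of Tex12. The second Syce2 window is before that other start only and lies inside Syce2 as placed above.
Hormad1: gcgcagcttttgGCGGGAatagtggtctgg
Syce2, first window: ggtgaccccgagTCCCGCacctacgcatta
Syce2, second window: gagggcgctgagGCGGGAaaagacggaatg
Sycp3: aaggaaggaacaGCGGGAaagtgctgcttc
Tex12: gggaggaaaaagGCGGGAagtaaagggaag

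The libraries held 9673587 to 98724982 unique molecular identifiers (UMIs), and 72362 cells were kept after filters, of which 58630 fell into clusters named as a germ cell stage from markers that include no member of the set. The median kept cell carried 2455 to 4202.5 UMIs depending on the library, so levels are given as UMIs of a gene per 1000000 UMIs of all genes (CPM) in the summed cells of a stage. At most 31 barcodes were shared by any pair of libraries. The library VC-T 1 stood apart from the rest of its group. It held 0 late spermatids, and its Sycp3 levels were 657 CPM in leptotene/zygotene cells and 59.3 CPM in round spermatids, within or close to the range of T. The study left this library out of its differential expression, and it is left out of every comparison below unless named. The remaining 8 libraries without JQ1 (UC, VC-R, VC-T 2 and VC-T 3) are called the control libraries. In them, late spermatids made up 60.1% ± 3.6 (SD, n = 3) of named germ cells in UC, and T had 1 to 4 late spermatids per library, too few for a comparison.

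The lateral element and axis genes had their highest level in leptotene/zygotene cells and fell stage by stage thereafter. Sycp3, over the 8 control libraries, reached 2063 ± 275 CPM (mean ± SD) in leptotene/zygotene cells and stood at 432 ± 54.5 in pachytene, 299.9 ± 40.8 in diplotene/dividing cells, 29.4 ± 4.57 in round spermatids and 10.9 ± 3.22 in late spermatids. In spermatogonia it was at 159.7 ± 44.2 CPM. Each of the 8 libraries gave this same order, and the ranges overlapped only between pachytene and diplotene. Sycp2 went from 1206 ± 163 CPM in leptotene/zygotene to 449 ± 55.1 in pachytene and 163.8 ± 25.7 in diplotene/dividing cells. Hormad1 dropped more between the first pair of these stages, from 1255 ± 145 CPM to 236.1 ± 25.3, a ratio of 5.31. Hormad2, which had few UMIs outside prophase, was at 284.5 ± 29.0 CPM in leptotene/zygotene and 30.01 ± 6.40 in pachytene, below the 45.5 ± 24.2 of spermatogonia in 7 of 8 libraries.

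Sycp1, the transverse filament gene, was at 3444 ± 269 CPM in leptotene/zygotene cells, 5.16 times its level in spermatogonia, which at 667.9 ± 83.5 CPM was the next highest. Its level fell to 436.3 ± 89.4 CPM in pachytene and 114.1 ± 17.7 in diplotene/dividing cells. It then stood at 201.9 ± 15.0 CPM in round spermatids, above diplotene in all 8 libraries, and at 15.4 ± 3.98 CPM in late spermatids.

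The central element genes did not share a profile. Tex12 resembled Sycp1 in the order of its highest stages, with 353.6 ± 50.3 CPM in leptotene/zygotene cells, 71.9 ± 12.8 in spermatogonia and 64.9 ± 15.7 in pachytene. Unlike Sycp1, it was lower in round spermatids, at 2.75 ± 1.21 CPM, than in diplotene/dividing cells, at 6.51 ± 4.36. Its spermatogonial and pachytene ranges overlapped, and the order held in 5 of 8 libraries. Syce1 ran the other way. It was highest in diplotene/dividing cells at 731.4 ± 40.4 CPM, then in pachytene at 636.3 ± 37.8, with 271.9 ± 30.6 in leptotene/zygotene cells and 157.9 ± 22.6 in spermatogonia. Syce2 was at 474.8 ± 97.5 CPM in leptotene/zygotene cells, dropped to 62.9 ± 33 in pachytene and 35.0 ± 6.44 in diplotene/dividing cells, and was back at 400.7 ± 30.3 in round and 330.7 ± 27.8 in late spermatids. The leptotene/zygotene level of Syce2 was above the round spermatid level in 7 of 8 libraries, and the ranges overlapped. Syce3 had 488.3 ± 72.1 CPM in leptotene/zygotene cells and 353.0 ± 37.4 in round spermatids, and its levels in the other 4 stages, 121.7 to 144.0 CPM on average, overlapped one another.

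**Figure D1:**
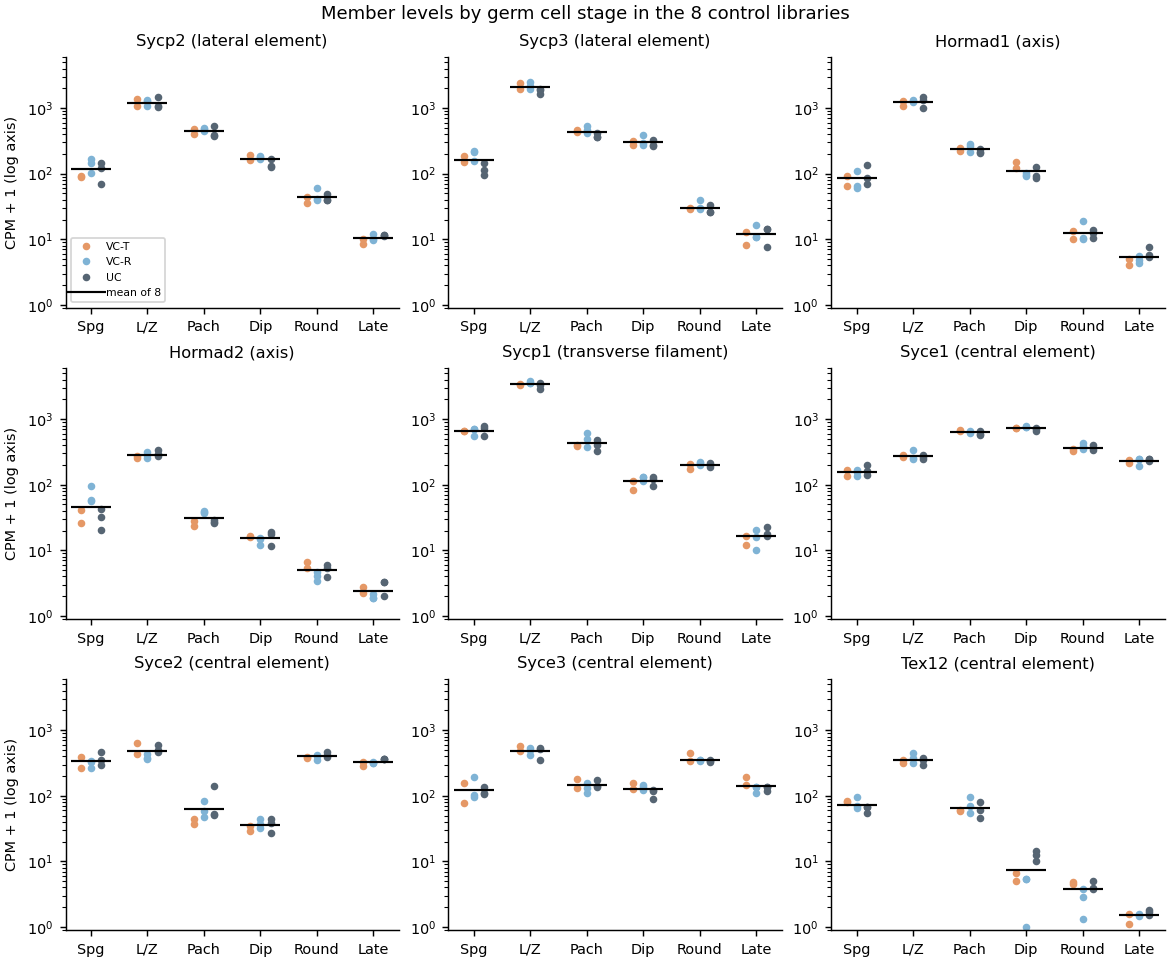
Levels of the 9 genes in each germ cell stage of the 8 control libraries, in CPM + 1 on a log axis; each point is a library and each bar the mean. Leptotene/zygotene (L/Z) is the highest stage for 8 of 9 genes, and diplotene (Dip) for Syce1.

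Leptotene/zygotene was thus the highest stage by the mean for 8 of 9 genes. The stages were made by clustering these same cells, so these orders are descriptions and no test between stages was made. Described by the Pearson correlation of mean levels over 6 stages in the UC libraries, 6 members followed the mean of the other 8 closely, with r from 0.902 (Sycp3) to 0.950 (Hormad2). Syce3 followed it at r = 0.477, and Syce1 and Syce2 not at all, at r = -0.11 and -0.08. The 5 genes outside the set with the profile most like the members' mean were Ralgapa2 (r = 0.996), D3Ertd751e (0.990), Sdhaf3 (0.988), Pja2 (0.986) and Nr2c2 (0.985), over the same 6 stages.

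The UMIs that a whole testis yields for these genes came from other stages than the one with the highest level, because stages differ in cell number and RNA content. In the control libraries pachytene cells gave 64.0% of the germ cell UMIs of Hormad1, 61.7% of those of Sycp3 and 70.0% of those of Sycp2, and leptotene/zygotene cells 21.7%, 19.3% and 12.4%. Of the Syce2 UMIs, 48.2% came from late and 40.1% from round spermatids. Of the Syce3 UMIs, 47.5% came from round spermatids.

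UMIs of the members were also found in somatic cells, where these genes are not known to act. These values are given as a possible measure of free RNA, and whether it adds as much in spermatids was not tested. In Sertoli cells Sycp1 was at 113.5 ± 49.3 CPM, Sycp3 at 132.8 ± 48.6 and Syce2 at 140.9 ± 30.7 (SD, n = 8 control libraries). The round and late spermatid levels of Sycp2, Sycp3, Tex12, Hormad1 and Hormad2 were below their Sertoli means of 67.5, 132.8, 15.6, 44.2 and 11.3 CPM. Those of Syce2 were above. Sycp1 in round spermatids was above its Sertoli range of 50.5 to 168.5 CPM.

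The somatic levels of some members differed between T and UC. In the Sertoli cells of T 1 and T 3 (63 and 40 cells, T 2 having too few) Sycp1 was at 199.4 to 356.6 CPM, against 50.5 to 161.6 in UC. Sycp2 was at 137.1 to 137.5 CPM in T against 33.6 to 107.8 in UC, and Syce1 at 295.7 to 315.4 against 126.1 to 287.3. Sycp1, Sycp2 and Syce1 did not overlap between T and UC, and the share of all genes without overlap was not counted. Sycp3 (123.4 to 254.4 against 67.3 to 215.5 CPM), Hormad1 (96.0 to 123.8 against 8.4 to 125.7) and Tex12 (13.8 to 27.4 against 8.41 to 17.96) overlapped, as did Syce2, Syce3 and Hormad2. In the Sertoli cells of VC-R, Syce1 was at 115.5 to 332.9 CPM, which includes the T values, and in VC-T at 129.6 to 219.6. Sycp1 reached 168.5 CPM in VC-T and 99.9 in VC-R, and Sycp2 reached 74.5 and 133.2, all below T. In the Sertoli cells of R, Syce1 was at 318.8 to 348.9 CPM, Syce2 at 182.7 to 261.9 and Syce3 at 188.6 to 235.7. Sycp1 was at 99.5 to 151.1 CPM there and Sycp2 at 54.9 to 72.5. In the Leydig cells of T 1 and T 3 (20 and 17 cells) Sycp1 was at 279.2 and 323.4 CPM, Sycp3 at 223.4 and 138.6 and Hormad1 at 139.6 and 138.6. In the 14 cells each of UC 1 and UC 3 they were at 28.1 to 72.8, 24.3 to 84.4 and 0 CPM. Sycp2 (55.8 to 92.4 against 24.3 to 28.1 CPM) and Tex12 (27.9 to 46.2 against 0) were also higher in T. Syce2 was lower in T than in UC, at 92.4 to 111.7 against 169.9 to 281.5 CPM. Syce1 (195.4 to 277.2 against 145.6 to 534.8 CPM), Syce3 (111.7 to 184.8 against 48.5 to 281.5) and Hormad2 (0 to 27.9 against 0) overlapped. Against the vehicle libraries the order of Syce2 was the reverse, at 37.2 to 58.9 CPM in VC-T and 73.9 in VC-R (1 library). Sycp1, Sycp2, Sycp3, Tex12 and Hormad1 were higher in T than in these libraries too. No test was made on so few cells.

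Members also varied between the clusters that make up pachytene. From the largest pachytene cluster to the next largest, led by Epha7, Chdh and Pou5f2, mean levels over the control libraries went from 791.0 to 139.8 CPM for Sycp1, from 350.8 to 150.6 for Hormad1, from 681.1 to 276.1 for Sycp2 and from 122.3 to 7.90 for Tex12. Syce1 went from 568.4 to 718.2 CPM.

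At a finer clustering the leptotene/zygotene cells divided into an earlier sub-cluster with more Stra8, the gene that starts meiotic prophase, and a later one with Rad51ap2, Ccdc152 and Meiob among its leading genes. The earlier one, with Sdk1, Prss50, Prdm9 and Stra8 among its leading genes, was left without a stage name at that resolution, because among its leading genes markers of a further class outnumbered those of prophase. Here it stands only for the leptotene/zygotene cells that fell into it. In the control libraries Hormad1 was at 670.4 ± 193 CPM in the earlier and 1637 ± 233 in the later sub-cluster, and the 2 ranges, 375.9 to 904.5 and 1277 to 2070, did not overlap. Sycp3 was at 1376 ± 257 and 2546 ± 447 CPM, also without overlap. Sycp1 was at 2994 ± 373 and 3746 ± 280 CPM. Syce2 had the opposite order, 791.3 ± 97.5 against 255.8 ± 29.5 CPM. Sycp2, at 1158 ± 283 and 1254 ± 154 CPM, and Syce3, at 450.2 ± 113 and 519.9 ± 71.6, differed by less than the spread between libraries.

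**Figure D2:**
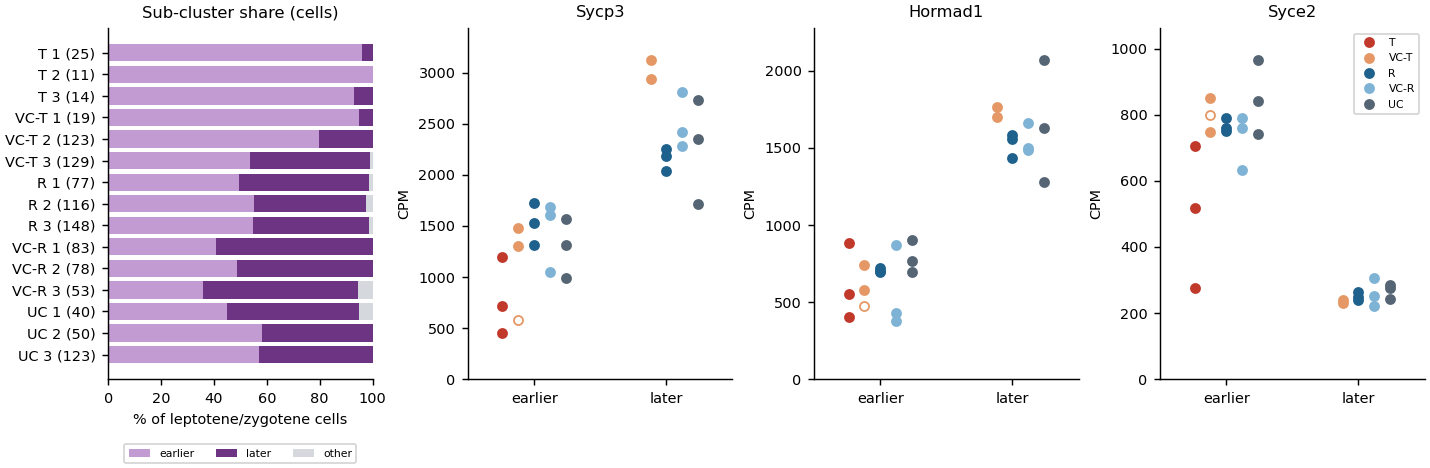
Left, share of each library's leptotene/zygotene cells in the earlier and later sub-cluster, in percent; right, levels of members in each sub-cluster in CPM, a point per control library. T cells were nearly all in the earlier sub-cluster, where Sycp3 and Hormad1 were low and Syce2 high.

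The first question of the design was how the members stood directly after 3 wk of JQ1. In leptotene/zygotene cells, T libraries had less Sycp3 and Hormad1 RNA than UC. Sycp3 was at 1194, 718 and 556 CPM in the T libraries and at 1934, 1662 and 1883 CPM in UC. The groups did not overlap, and the T values rest on 42, 13 and 18 Sycp3 UMIs from 25, 11 and 14 cells. The log2 fold change was -1.07 (SE 0.23, adjusted p = 0.000772, edgeR quasi-likelihood test with Benjamini-Hochberg adjustment over all genes tested). Hormad1 was at 597, 884 and 711 CPM in T against 1461, 1352 and 1016 in UC, again without overlap (log2 fold change -0.79, SE 0.24, edgeR adjusted p = 0.0200). These were the 2 members called of 9 tested, in a comparison where 13.3% of 1636 genes were called. The Hormad1 call was lost without T 1 (log2 fold change -0.76), UC 1 (-0.70) or UC 2 (-0.73), and the Sycp3 call was kept whichever library was left out. With the same number of cells drawn from every library within each cluster, Sycp3 still passed (-1.05) and Hormad1 did not (-0.60), where 13.8% of 471 genes were called.

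Sycp1 and Syce1 did not overlap between the groups either and missed the threshold. Sycp1 was at 2246, 1492 and 2688 CPM in T and 3566, 3336 and 2906 in UC (edgeR adjusted p = 0.0577, log2 fold change -0.52), and it passed without T 3 (-0.81) or UC 3 (-0.62). Syce1 was at 540, 497 and 340 CPM in T and 247, 262 and 280 in UC (log2 fold change 0.80, edgeR adjusted p = 0.0577). The other 5 members overlapped between T and UC, with log2 fold changes from -0.41 to -0.13.

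**Figure D3:**
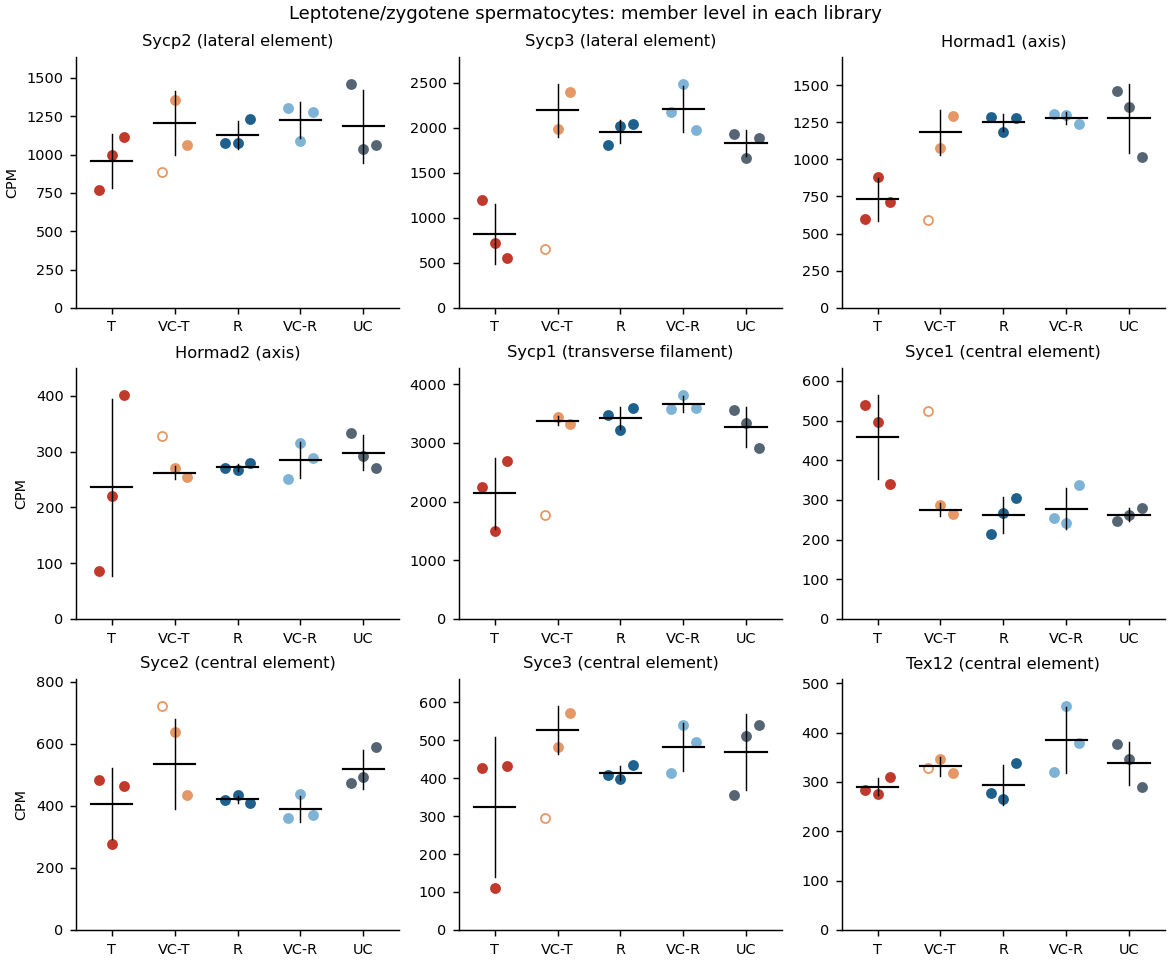
CPM of each member in the leptotene/zygotene cells of every library, by group; the open circle is VC-T 1, and bars are group means. For Sycp3 and Hormad1, the 3 T libraries lie below the UC libraries.

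The T cells were not spread over the stage as the UC cells were. Leptotene/zygotene cells made up 0.46% ± 0.15 (SD, n = 3) of the named germ cells in T and 2.14% ± 0.96 in UC. Of these, 92.9 to 100% lay in the earlier sub-cluster in T and 45 to 58% in UC, and 2 of the T cells in all lay in the later one. With the earlier sub-cluster alone, an alternative chosen after seeing the data, Sycp3 was at 1200, 718 and 453 CPM in T and 991, 1571 and 1313 in UC, so that the groups overlapped. Neither Sycp3 (log2 fold change -0.63) nor Hormad1 (-0.36) passed the test there, where 2.2% of 728 genes were called. In the same cells Syce2, which is high in the earlier sub-cluster, was at 519, 276 and 705 CPM in T and 743, 841 and 965 in UC and did not pass (log2 fold change -0.77). The 11 markers of differentiating spermatogonia summed to 1854 to 3212 CPM in T leptotene/zygotene cells and to 1102 to 1493 in UC, without overlap, and the 12 leptotene and zygotene markers to 5655 to 7790 and 5447 to 5820. The 5 abundant late spermatid transcripts Prm1, Prm2, Tnp1, Tnp2 and Tsga8 summed to 221 to 938 CPM in T and to 7240 to 12870 in UC. All Leydig, peritubular myoid and macrophage markers were at 0 in every T library. In these T sums 3 UMIs equal 85.3 to 165.8 CPM, so values of 0 cannot show that such RNA was absent. The part of these marker values in the member levels was not tested.

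In pachytene cells, where the complex is complete, 0 of 9 members passed the test between T and UC (2 at an unadjusted p under 0.05, and 2 by DESeq2, Hormad1 and Hormad2), in a comparison where 1.98% of 11693 genes were called. These values rest on 1102 to 1765 cells per T library and 222 to 503 per UC library. The median pachytene cell held 3617 to 5615 UMIs in T libraries and 6764 to 10291 in UC, so CPM are shares of unlike totals. Medians were also lower in T, without overlap, in spermatogonia, leptotene/zygotene cells and round spermatids. Levels per cell were not tested. Sycp3 was at 501, 454 and 487 CPM in T and 368, 419 and 363 in UC (log2 fold change 0.16, edgeR adjusted p = 0.240). Syce1 was at 683, 683 and 646 CPM in T and 574, 598 and 658 in UC (log2 fold change -0.03). Sycp2 differed by 0.11 with an SE of 0.10 on the log2 scale. Hormad2 was at 56.6, 38.4 and 60.2 CPM in T and 27.8, 26.2 and 24.7 in UC without overlap (log2 fold change 0.80, SE 0.18, edgeR adjusted p = 0.0705). Hormad1 also did not overlap, at 311, 279 and 311 against 217, 240 and 208 CPM (log2 fold change 0.27, edgeR adjusted p = 0.105), nor did Sycp3 at the values above. The share of all genes without overlap is not given here. Hormad2 and Hormad1 passed with library totals in place of TMM (0.97 and 0.44), and Hormad2 also with equal cell numbers per cluster (0.61), without a filter on low counts (0.83) and in one fit over all groups (0.80).

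UC 1 differed from the other UC libraries in this stage. Its Syce2 level was 138 CPM, against 49.5 and 51.6 in UC 2 and UC 3, and 42.1% of its pachytene cells lay in a cluster that held no T cell. With that cluster left out, an alternative added after seeing the data, Hormad2 passed the test (log2 fold change 0.67) and the estimate for Syce2 moved from -0.68 to 0.071, where 16.6% of 11352 genes were called. Hormad2 also passed with UC 1 left out (0.87).

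In spermatogonia, 1 of 9 members passed, Sycp3 (3 at an unadjusted p under 0.05), where 6.07% of 7265 genes were called. Syce1 (log2 fold change 0.70, edgeR adjusted p = 0.0583), Syce3 (0.41) and Syce2 (-0.38) did not pass, though T and UC did not overlap. Sycp3 was at 249, 208 and 199 CPM in T and 96.0, 115 and 145 in UC (log2 fold change 0.84, SE 0.20, edgeR adjusted p = 0.0156), and the call was lost without T 1 (0.63), UC 1 (0.74) or UC 2 (0.73), by DESeq2 and with equal cell numbers (0.81 each). The 12 pachytene markers summed to 2988 to 4607 CPM in T spermatogonia and 1130 to 2082 in UC, without overlap, and their part in this value was not tested. The lists of undifferentiated and differentiating spermatogonial markers overlapped in summed level between T and UC, at 719 to 1054 against 940 to 1162 CPM and 1616 to 1859 against 1662 to 2044 CPM. In diplotene/dividing cells 0 of 8 members tested passed (3 at an unadjusted p under 0.05, 1 by DESeq2), where 2.39% of 6870 genes were called. The largest estimate there was for Sycp1, at 242, 150 and 174 CPM in T and 132, 121 and 93.8 in UC (log2 fold change 0.71, edgeR adjusted p = 0.125, and 0.67 by DESeq2, which called it).

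Round spermatids, which follow the second meiotic division, were the stage with the most members called. In them 7 of 9 members passed the test between T and UC, 6 higher in T and 1 lower, where 50.0% of 12841 genes were called, 23.0% higher and 27.0% lower. Sycp3 was at 73.8, 73.4 and 63.4 CPM in T and 32.0, 25.0 and 25.4 in UC (log2 fold change 1.14, SE 0.12, edgeR adjusted p = 9.29e-07). Sycp1 was at 375, 402 and 386 CPM in T and 213, 199 and 187 in UC (log2 fold change 0.71, SE 0.07, edgeR adjusted p = 5.81e-07). In both genes every T library lay above every UC library by a margin wider than the spread within either group.

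Tex12 was low in both groups, at 9.82, 9.01 and 7.49 CPM in T and 3.99, 2.99 and 2.73 in UC, with a log2 fold change of 1.28 (SE 0.26). The axis gene Hormad1 was at 11.3, 9.51 and 13.1 CPM in UC and at 24.2, 23.6 and 26.7 in T (log2 fold change 0.86), and Sycp2 at 47.6, 39.4 and 38.1 and at 77.0, 77.0 and 69.2 CPM (0.61). In T every round spermatid level of Sycp3, Tex12, Hormad1 and Sycp2 was below the Sertoli range of the same group, and in UC those of Sycp3 and Tex12 were below and those of Hormad1 and Sycp2 within it. Late spermatids of the control libraries were lower still, at 10.9 CPM of Sycp3, 9.57 of Sycp2, 4.29 of Hormad1 and 0.54 of Tex12. The Sertoli level is thus no lower bound for spermatids. By these values a change of the RNA of these 4 genes in round spermatids cannot be told apart from a change of free RNA. Sycp1, Syce1 and Syce2 were above the Sertoli range of their group in each T and UC library. The Sertoli level of Sycp1 was itself higher in T (199.4 to 356.6 CPM, without T 2) than in UC (50.5 to 161.6). The part of free RNA in the rise of Sycp1 was not tested. Syce1 had the smallest of the called rises, from 358, 339 and 407 CPM to 516, 533 and 487 (log2 fold change 0.23), and its call was lost without T 2 (0.21), UC 1 (0.18) or UC 2 (0.17) and by DESeq2 (0.21). Syce2 was the member that fell, from 457, 421 and 391 CPM in UC to 336, 326 and 293 in T (log2 fold change -0.65, SE 0.08). Hormad2, at 4.91, 4.69 and 2.5 CPM in T and 2.90, 4.35 and 5.07 in UC, overlapped and did not pass.

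Syce3 in round spermatids depended on the scaling. Its CPM was 416, 376 and 371 in T and 350, 325 and 342 in UC, while the fold change after TMM scaling was -0.05 on the log2 scale and did not pass. With library totals in place of TMM it was 0.20 and passed. TMM lowered every log2 fold change of this comparison by 0.25 relative to library totals, and by 0.17 in pachytene and 0.67 in all germ cells, and the 7 calls of round spermatids kept their direction under both scalings.

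**Figure D4:**
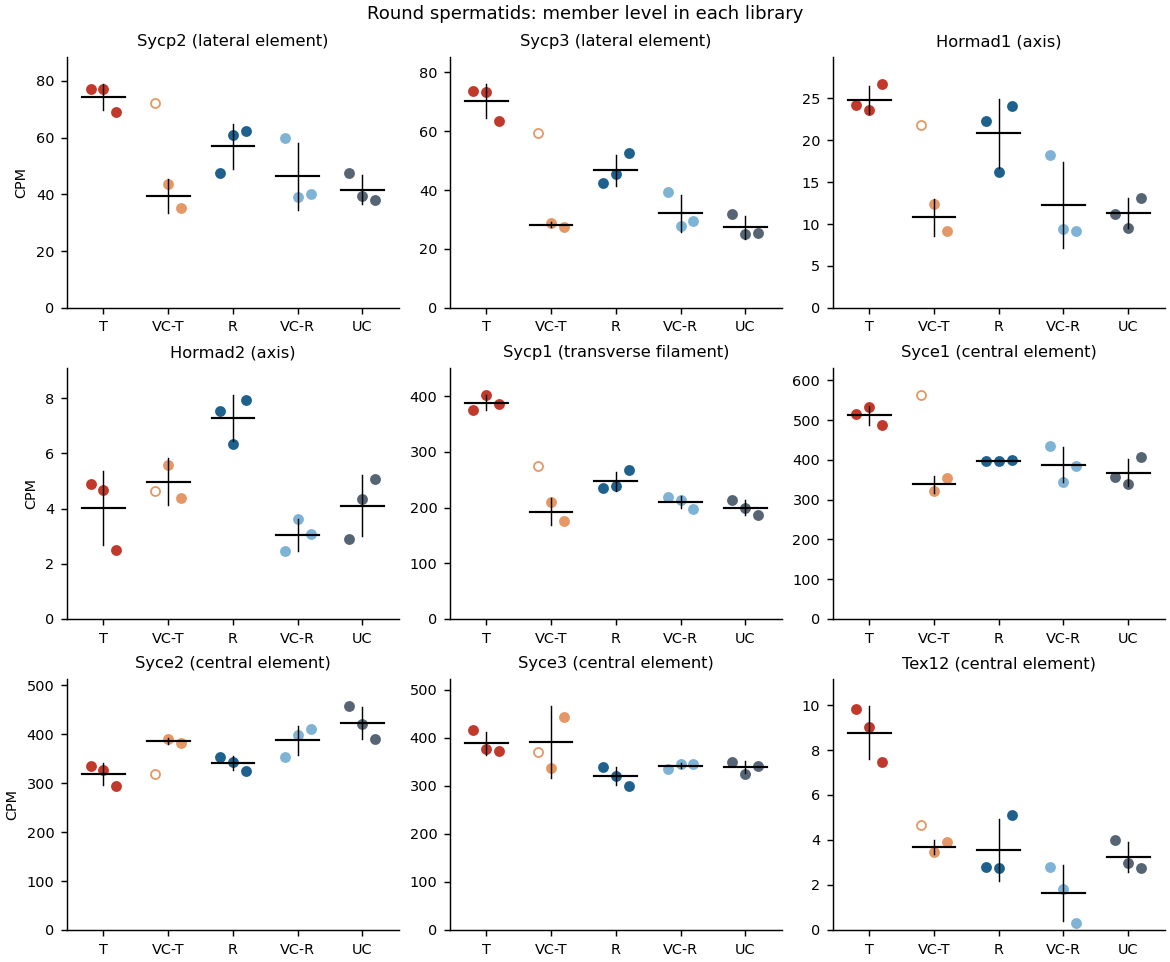
CPM of each member in the round spermatids of every library, by group; the open circle is VC-T 1, and bars are group means. The T libraries lie above UC for Sycp1, Sycp2, Sycp3, Syce1, Tex12 and Hormad1 and below it for Syce2; Syce3 is higher in CPM and not after TMM scaling.

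The make-up of the round spermatid class moved with these results. The largest round spermatid cluster, led by Ssxb2 and Ssxb1, held 48.3 to 55.6% of the round spermatids of T and 21.4 to 29.7% of those of UC. In the control libraries this cluster had more Sycp3 (75.0 CPM), Hormad1 (24.1) and Syce1 (598.7) and less Syce2 (199.4) than the next largest cluster, at 18.2, 7.15, 350.2 and 487.3 CPM. Within the largest cluster alone, an alternative added after seeing the data, Sycp1 (log2 fold change 0.41) and Sycp3 (0.53) still passed the test. Sycp2 (0.34), Hormad1 (0.48), Tex12 (1.18), Syce2 (-0.072) and Syce1 (-0.0019) did not, where 8.98% of 8753 genes were called. With the same number of cells drawn from every library within each cluster, Sycp3 (0.66), Sycp1 (0.60) and Sycp2 (0.39) passed, where 17.2% of 9700 genes did. Hormad1 (0.50), Syce2 (-0.16) and Syce1 (0.071) did not pass, and Tex12 had too few UMIs to be tested. The 12 pachytene markers summed to 9109 to 9499 CPM in T round spermatids and 8526 to 8842 in UC, and the 10 late spermatid markers to 4415 to 4969 and 7853 to 8876. The mitochondrial transcripts summed to 3505 to 4284 CPM in T round spermatids and to 1208 to 2300 in UC, without overlap, as was so in pachytene (14446 to 15558 against 10747 to 12824 CPM) and leptotene/zygotene cells (33714 to 43317 against 29594 to 30936). The part of RNA quality in the T values was not tested.

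Summed over all germ cells, as a bulk measurement would see the testis, 8 of 9 members passed, 6 higher in T and 2 lower, where 60.8% of 17314 genes were called, 29.6% higher and 31.1% lower. Fewer cells of a type and less RNA per cell cannot be told apart in such sums. Syce2 had the largest change, at 172, 137 and 150 CPM in T and 298, 309 and 295 in UC (log2 fold change -1.64, SE 0.09). Sycp3 was at 318, 319 and 320 CPM in T and 159, 122 and 136 in UC (log2 fold change 0.53). Sycp1, Sycp2, Tex12, Hormad1 and Hormad2 were higher by 0.47 to 0.64 on the log2 scale. Syce3 was called lower after TMM scaling (-0.43) and higher with library totals (0.24), at 260, 204 and 222 CPM in T and 194, 186 and 202 in UC.

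The share of the stages moved with these sums. Pachytene cells were 42.5% ± 7.90 of the named germ cells in T and 11.6% ± 5.04 in UC (SD, n = 3). Pachytene cells gave 85.0% of the Hormad1 UMIs and 78.8% of the Sycp3 UMIs in T, and leptotene/zygotene cells 0.81% and 0.49%. With the same number of cells drawn from every library within each cluster, 1 of these 8 members still passed in all germ cells, Sycp1 at a log2 fold change of 0.29, where 19.3% of 13101 genes passed. Sycp3 was then at -0.048, Sycp2 at -0.068, Hormad1 at -0.031, Tex12 at -0.17, Syce2 at -0.012, Hormad2 at 0.27 and Syce3 at 0.17.

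The vehicle group of the same age, VC-T 2 and VC-T 3, shares its T libraries with the comparison above. In leptotene/zygotene cells Sycp3 was at 1987 and 2402 CPM in VC-T (log2 fold change of T -1.36, SE 0.28, edgeR adjusted p = 0.000135), the 1 member of 8 tested that passed, where 7.24% of 829 genes were called. Within the earlier sub-cluster it did not pass (-0.80), where 1.72% of 696 genes did, nor did it with equal cell numbers per cluster (-1.38). In pachytene 2 of 9 passed, where 26.2% of 11968 genes were called. Hormad2 was at 26.5 and 22.4 CPM in VC-T (log2 fold change 0.86, SE 0.19, edgeR adjusted p = 0.00837) and Sycp1 at 407 and 387 (0.28, SE 0.09, edgeR adjusted p = 0.0262). The Hormad2 call was lost without VC-T 2 (0.93) or VC-T 3 (0.77), and the Sycp1 call without either of these (0.26 each), T 1 (0.24) or T 3 (0.25). Sycp1 was lost also by DESeq2 (0.25), in one fit over all groups (0.27), with doublets kept (0.23) and with equal cell numbers (0.14).

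In round spermatids 7 of 9 passed against VC-T, where 44.1% of 14039 genes were called. Sycp3 was at 29.0 and 27.6 CPM in VC-T (log2 fold change 1.04, SE 0.13), Sycp1 at 210 and 176 (0.73, SE 0.09), Tex12 at 3.47 and 3.91 (1.02), Hormad1 at 12.4 and 9.20 (0.89), Sycp2 at 43.6 and 35.2 (0.63), Syce1 at 322 and 354 (0.31) and Syce2 at 391 and 383 (-0.56). No T library lay within the VC-T range of any of these 7. The Syce1 call was lost without T 1 (0.30), T 2 (0.28) or VC-T 2 (0.15), and that of Tex12 without VC-T 2 (0.83), and DESeq2 called neither (0.30 and 0.98). In the largest cluster alone only Sycp1 (0.45) passed, where 7.74% of 9066 genes did, and with equal cell numbers per cluster only Sycp1 (0.50), where 7.74% of 9126 genes did. Sycp3 was then at 0.32, Sycp2 at 0.27, Hormad1 at 0.20, Syce2 at -0.036 and Syce1 at -0.059. The 2 clusters of few UMIs per cell held 37.2% and 15.6% of the round spermatids of VC-T 2 and 1.3% and 2.45% of those of VC-T 3. With them left out, an alternative added after seeing the data, Syce3 (-0.46) passed in place of Syce1 (0.15) and the other 6 members still passed, where 53.4% of 13994 genes did. In spermatogonia and diplotene/dividing cells 0 of 9 passed in each (3 and 2 at an unadjusted p under 0.05, 0 by DESeq2), where 9.17% of 9485 and 0.728% of 8101 genes were called. Over all germ cells 8 of 9 passed against VC-T, where 55.1% of 18515 genes did. Syce2 was at -1.29 and Syce3 at -0.56 on the log2 scale, and the other 6 were higher by 0.33 to 0.62. Syce3 did not pass with library totals (-0.049), Sycp1 (0.36) not without T 3 (0.34), and Sycp3 (0.33) not without T 2 (0.30), T 3 (0.35) or VC-T 2 (0.20). With equal cell numbers 0 of 9 passed over all germ cells.

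These comparisons rest on which libraries stand for the vehicle. With VC-T 1 put back, 0 members passed in any stage or over all germ cells. Few other genes did: 0.0% were called in spermatogonia, leptotene/zygotene cells, round spermatids and all germ cells, 0.704% of 12507 in pachytene and 0.338% of 8568 in diplotene/dividing cells. Sycp3 in leptotene/zygotene cells then differed by -1.06 and in round spermatids by 0.68 on the log2 scale. VC-T 1 itself was at 657 CPM of Sycp3 in leptotene/zygotene cells and at 274 CPM of Sycp1, 59.3 of Sycp3 and 319 of Syce2 in round spermatids.

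The next question was where the members stood 6 wk after the last dose. In leptotene/zygotene cells R libraries were at 1811, 2019 and 2040 CPM of Sycp3, against 1934, 1662 and 1883 in UC and 2179, 2484 and 1976 in VC-R, and at 1288, 1184 and 1277 CPM of Hormad1, against 1461, 1352 and 1016 and 1306, 1302 and 1235. Both genes overlapped with UC. By the edgeR test 0 of 9 members passed between R and UC (1 at an unadjusted p under 0.05, 0 by DESeq2), where 3.65% of 6108 genes were called, and 0 of 9 between R and VC-R (1 at an unadjusted p under 0.05, 0 by DESeq2), where 0.0% of 5802 genes were called. The earlier sub-cluster held 49.4 to 55.2% of the R cells.

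In pachytene cells of R, 0 of 9 members passed against UC and 0 of 9 against VC-R (1 and 0 at an unadjusted p under 0.05, 0 by DESeq2 where it gave an adjusted p), with 0.00797% of 12552 and 0.0% of 12727 genes called. Sycp3 was at 458, 429 and 449 CPM in R and 418, 530 and 469 in VC-R, and Hormad2 at 36.8, 36.9 and 41.8 against 37.9, 36.1 and 38.4. The 3 R libraries of Hormad2 were nonetheless all above UC (log2 fold change 0.47, SE 0.11, edgeR adjusted p = 0.704). Nor did a member pass in spermatogonia, diplotene/dividing cells or late spermatids of R against either control, where 0.733%, 11.7% and 8.46% of genes were called against UC and 0.0469%, 0.0% and 0.0% against VC-R. Of these, 1, 3 and 1 members were at an unadjusted p under 0.05 against UC and 0 in each against VC-R, and DESeq2 called 0 of those to which it gave an adjusted p.

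Round spermatids were the stage in which R differed. Against UC 6 of 9 members passed, 4 higher and 2 lower, where 29.3% of 13975 genes were called, 16.4% higher and 12.9% lower. Sycp3 was at 42.3, 45.4 and 52.6 CPM in R and 32.0, 25.0 and 25.4 in UC (log2 fold change 0.66, SE 0.13, edgeR adjusted p = 0.000292). Hormad1 was at 22.3, 16.2 and 24.1 CPM in R against 11.3, 9.51 and 13.1 (0.74, SE 0.17, edgeR adjusted p = 0.00220). Hormad2 (0.63) and Sycp2 (0.34) were also higher. Syce2 was at 354, 343 and 325 CPM in R against 457, 421 and 391 (-0.45, SE 0.08, edgeR adjusted p = 0.000160), and Syce3 at 338, 321 and 300 against 350, 325 and 342 (-0.22), which overlapped and was lost with library totals (-0.08). The calls of Hormad2 and Sycp2 were each lost with any of several libraries left out, R 3 among them (0.56 and 0.28), as was that of Syce3 without R 3 (-0.17) or UC 1 (-0.21). Hormad2 was lost also without R 1 (0.62), UC 1 (0.48) or UC 2 (0.66), and Sycp2 without R 2 (0.28) or UC 3 (0.25). DESeq2 called neither (0.61 and 0.29). With cells of at least 2000 UMIs, Hormad1 (0.71), Hormad2 (0.49), Sycp2 (0.31) and Syce3 (-0.14) did not pass, and with equal cell numbers per cluster only Sycp3 (0.48) did, where 1.99% of 12046 genes did.

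Against VC-R 4 of 9 passed in round spermatids, where 22% of 14137 genes were called. Hormad2 was at 7.55, 6.34 and 7.95 CPM in R and 2.46, 3.63 and 3.06 in VC-R (log2 fold change 1.08, SE 0.26, edgeR adjusted p = 0.00630). Sycp3 was at 39.3, 27.8 and 29.4 CPM in VC-R (0.45), Hormad1 at 18.2, 9.44 and 9.19 (0.71) and Syce2 at 354, 398 and 411 (-0.32). The Sycp3 and Hormad2 groups did not overlap, and those of Hormad1 and Syce2 did. Leaving out R 3, VC-R 2 or VC-R 3 ended the calls of Sycp3 (0.36, 0.34 and 0.40), Hormad1 (0.58, 0.52 and 0.57) and Syce2 (-0.27, -0.29 and -0.27), and R 1 that of Hormad1 (0.66). Without VC-R 1, Tex12 passed as well (1.43). DESeq2 did not call Sycp3 (0.39) or Hormad1 (0.64), library totals ended the call of Syce2 (-0.19), and with cells of at least 2000 UMIs or with equal cell numbers, where 0.0402% of 12437 genes were called, 0 of 9 passed. With equal cell numbers Sycp3 was at 0.40, Hormad1 at 0.45, Hormad2 at 0.41 and Syce2 at -0.12.

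The make-up of the class differed here too, and in another way than in T. Clusters of few UMIs per cell held 39.1% ± 5.82 and 21.6% ± 4.81 of R round spermatids, 3.34% ± 1.24 and 3.55% ± 1.70 of those of UC and 3.6% ± 2.78 and 3.72% ± 3.2 of those of VC-R (SD, n = 3). In these clusters Sycp1 was at 480.7 and 692.2 CPM and Hormad2 at 22.5 and 17.7 CPM over the control libraries, above the other round spermatid clusters. With these clusters left out, an alternative added after seeing the data, Sycp3 (log2 fold change 0.60) and Syce2 (-0.28) passed against UC and 0 of 9 against VC-R. The respective shares of genes called were 2.23% of 13035 and 0.0% of 13144. Hormad2 was then at 0.09 against UC and 0.34 against VC-R. The mitochondrial transcripts summed to 5877 to 8811 CPM in R round spermatids and to 1208 to 2300 in UC, and the part of RNA quality was not tested. In each R library the round spermatid levels of Sycp3 and Hormad1 were below the Sertoli range of the group (81.7 to 120.1 and 28.2 to 58.0 CPM). By these values a change of their RNA cannot be told apart from a change of free RNA. The levels of Hormad2 and Syce2 were above the Sertoli range.

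Summed over all germ cells, 4 of 9 members passed between R and UC, where 18.7% of 18158 genes were called. Hormad2 (log2 fold change 0.39), Sycp3 (0.31) and Sycp2 (0.25) were higher and Syce2 lower (-0.29). The Sycp2 call was lost without R 1 (0.21), R 3 (0.23), UC 2 (0.26) or UC 3 (0.16) and that of Hormad2 without R 3 (0.31), and none of the 4 passed in one fit over all groups or with equal cell numbers. Against VC-R 0 of 9 passed (0 at an unadjusted p under 0.05, 0 by DESeq2), where 0.0% of 18326 genes were called.

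VC-R and UC, neither of which received JQ1, gave 0 calls among the members in any of the 6 stages by edgeR or DESeq2, nor over all germ cells, where 0.0% to 0.275% of genes were called (0.0231% in spermatogonia, 0.0457% in leptotene/zygotene, 0.101% in round and 0.192% in late spermatids, and 0.0% over all germ cells). At an unadjusted p under 0.05 there were 2 members in spermatogonia, 2 in leptotene/zygotene and 1 each in pachytene and diplotene/dividing cells. Sycp3 in spermatogonia was at 155, 214 and 221 CPM in VC-R, all above the 96.0 to 145 of UC, and VC-R 2 and VC-R 3 lay within the 199 to 249 of T. The rise of Hormad2 in pachytene relative to UC was 0.44 on the log2 scale in VC-R (SE 0.14, edgeR adjusted p = 1.00) and 0.80 in T.

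The difference between the JQ1 effect directly after dosing and that 6 wk later, (T minus VC-T) minus (R minus VC-R), was tested directly. It passed for 1 of 9 members in leptotene/zygotene cells (Sycp3), 1 in pachytene (Hormad2), 4 in round spermatids and 6 over all germ cells, where 0.681%, 2.71%, 39.4% and 41.9% of genes did. In spermatogonia and diplotene/dividing cells it passed for 0 of 9 in edgeR (1 each at an unadjusted p under 0.05), where 0.758% and 0.235% of genes did. With an added threshold of 1 on the absolute log2 fold, which the study used, the pairs of a member and a stage that were called numbered 3 for T against UC, 3 for T against VC-T, 0 for R against UC, 1 for R against VC-R, 0 for VC-R against UC and 2 for the difference of effects. Over the same 6 stages that threshold was met by 6.92%, 10.0%, 2.2%, 1.41%, 0.0145% and 6.37% of the pairs of a gene and a stage.

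**Figure D5:**
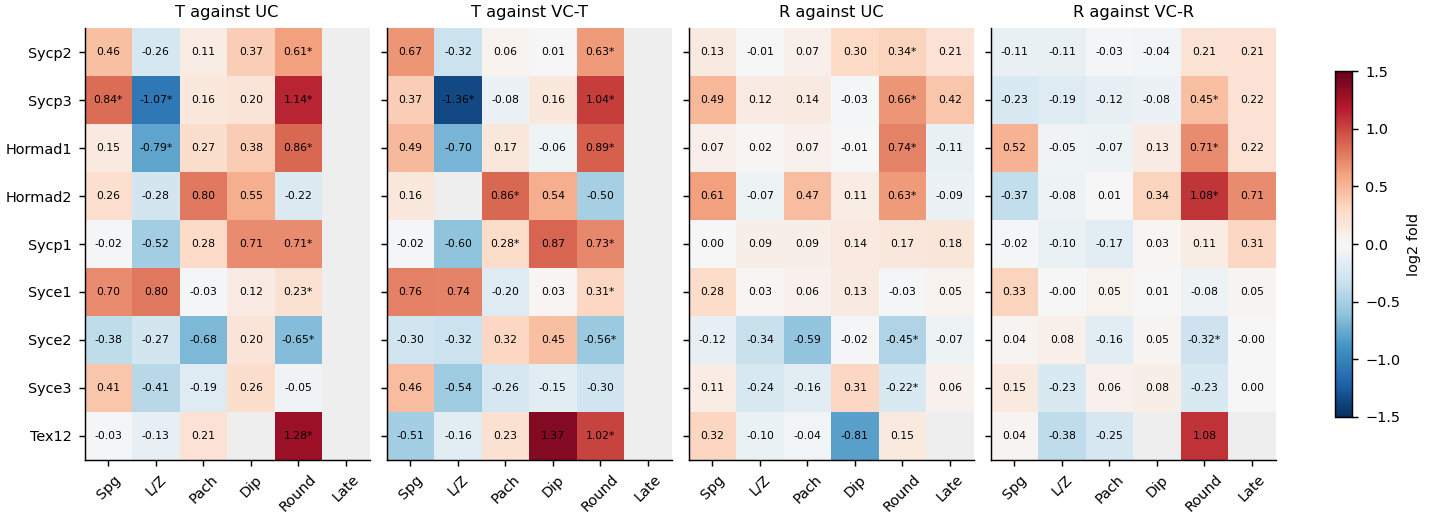
Log2 fold changes of the 9 members (rows) in each stage (columns) for the comparisons of JQ1 groups with their controls; an asterisk marks an edgeR adjusted p under 0.05 and grey a pair not tested. Most calls stand in the round spermatid (Round) column, for T and for R, and the others in the leptotene/zygotene (L/Z), pachytene and spermatogonia columns for T; the sign for Syce3 in round spermatids of T turns with library totals.

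A list of 36 other meiotic genes found in the files, among them cohesins, recombination and telomere attachment factors, was measured beside the members. In leptotene/zygotene cells of T against UC 5 of 13 tested passed, 4 higher and 1 lower, where 13.3% of all genes did. Tex11 (log2 fold change 1.58), Tex15 (1.18) and Zcwpw1 (0.88) were higher, and Meiob, a single-strand DNA binding factor of recombination, was lower (-1.54), as it was against VC-T (-1.49). The median over the 13 was 0.50, against -0.03 for all genes tested. In pachytene 0 of 30 passed against UC, where 1.98% of all genes did, and 10 of 32 against VC-T, where 26.2% did, all higher, including the cohesin subunit Smc3 (1.02) and Tex15 (1.75). In round spermatids of T against UC 8 of 27 passed, a smaller share than the 50.0% of all genes. Of these, 5 were higher, including the telomere attachment gene Terb1 (0.93), and 3 lower, including the recombinase gene Dmc1 (-3.34) and Msh4 (-1.31). The median over these 27 was 0.21, against 0.61 for the members and 0.04 for all genes tested. In R, 3 of 33 passed in leptotene/zygotene cells against UC, all lower (Smc3 at -0.58, Tex15 at -0.55 and Fkbp6 at -0.47), where 3.65% of all genes did, and 0 of 31 against VC-R, where 0.0% did. In round spermatids of R 6 of 28 passed against UC, where 29.3% of all genes did, and 6 of 29 against VC-R, where 22% did, all higher.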

How the data were processed

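The deposited values were UMI counts per gene and barcode, which the authors made with Cell Ranger (3.0.0 in the submitters' processing notes, 7.0.0 in the matrix headers) on mm10. Whether intronic reads were counted is not given in the sources used here. The authors' free-RNA and doublet corrections are not in these counts. The 9 members and all lists were chosen with earlier results of these data known.

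Cells with at least 500 genes, 1000 UMIs and under 30% mitochondrial UMIs were kept, and the 5.4% with the highest doublet scores in each library (4132 cells) removed. Leiden clustering (resolution 1.2, scanpy 1.11.5, 2000 variable genes without the members, 30 components) gave 31 clusters, named by fixed markers. Clusters with mixed scores stayed unnamed (9339 cells). The finer clustering used resolution 2.0. UMIs were summed per library and stage with at least 10 cells and tested with edgeR 4.0.16 (filterByExpr, TMM, quasi-likelihood test, Benjamini-Hochberg over all genes of a stage and comparison), and called at an adjusted p under 0.05. The study used DESeq2 (1.42.0 here), run as an alternative. The scripts were tested on simulated data. All members are named, and of the 36 partner genes those with the largest called changes, at most 3 in each direction. Groups came from the sample labels. The other alternatives were scaling, filters, cell selection, left-out libraries, a replicate block and cell draws per cluster.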

Additional observations from a re-analysis of the deposited data

Results flagged for a closer look

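The results below are those in which the difference between JQ1 and same-time vehicle was not the same directly after dosing as 6 wk later, by the contrast (T minus VC-T) minus (R minus VC-R) in edgeR with VC-T 1 left out and Benjamini-Hochberg adjustment over all genes. In leptotene/zygotene cells, Sycp3 differed by -1.43 on the log2 scale (SE 0.31, adjusted p = 0.00614), 1 of 9 members, where 0.681% of 7045 genes were called. In pachytene Hormad2 differed by 0.87 (SE 0.22, adjusted p = 0.0423), 1 of 9, where 2.71% of 12977 genes were called.

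In round spermatids 4 of 9 members were called, where 39.4% of 15016 genes were. Sycp1 differed by 0.67, Sycp3 by 0.64 and Syce1 by 0.44, and Hormad2 by -1.52. Hormad2 was at 2.5 to 4.91 CPM in T, 4.37 to 5.59 in VC-T, 6.34 to 7.95 in R and 2.46 to 3.63 in VC-R, and its difference between R and VC-R was larger than that between T and VC-T.

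Over all germ cells 6 of 9 members were called, where 41.9% of 19097 genes were: Tex12 at 0.63, Sycp2 at 0.62, Hormad1 at 0.51, Sycp1 at 0.47, Sycp3 at 0.41 and Syce2 at -1.23. The share of pachytene cells, 42.5% in T and 9.05% in VC-T, moved with these values, and its part in them was not tested beyond the draws of equal cell numbers described under the processing.

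With VC-T 1 put back, 0 members were called in the stages or over all germ cells, and of all genes 0.0% in spermatogonia, 0.0482% in leptotene/zygotene, 0.0375% in pachytene, 0.00993% in diplotene/dividing cells, 0.58% in round spermatids and 0.0161% over all germ cells. Sycp3 in leptotene/zygotene cells was then at -1.14 and Hormad2 in pachytene at 0.57. The pachytene Hormad2 call was lost without any of T 1, T 3, VC-T 2, VC-T 3, R 1, R 2, R 3, VC-R 2 and VC-R 3 (0.74 to 0.95), that of Sycp3 in leptotene/zygotene cells without T 3 (-1.17) or VC-R 3 (-1.36), and that of Syce1 in round spermatids without VC-T 2 (0.32). Over all germ cells the call of Sycp1 was lost without T 3, VC-T 2, VC-T 3, R 1, R 2 or VC-R 2 (0.31 to 0.44), that of Tex12 without T 2, T 3, VC-T 2, VC-T 3, R 1, R 2 or VC-R 2 (0.33 to 0.67), and that of Sycp3 without T 2, VC-T 2, R 1, R 2 or VC-R 2 (0.23 to 0.40). With the same number of cells per library and cluster, Sycp1 in round spermatids (0.56) was the 1 member and stage that passed.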

How the results depend on the processing

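The counts of member and stage pairs called over 6 stages were 10 of 44 tested for T against UC, 10 of 44 for T against VC-T, 6 of 53 for R against UC, 4 of 52 for R against VC-R, 0 of 49 for VC-R against UC and 6 of 45 for the contrast of the 2 times. With the study's added threshold of 1 on the log2 fold they became 3, 3, 0, 1, 0 and 2. With the same number of cells per library and cluster they were 6, 3, 2, 0, 0 and 1. Without a filter on low counts T against VC-T gave 16 and the contrast of times 10, and with library totals T against VC-T gave 16. VC-T 1 put back gave 0 for T against VC-T and 0 for the contrast. R against UC fell to 3 in one fit over all groups and to 3 with cells of at least 2000 UMIs, and R against VC-R to 0 with such cells and to 2 at clustering resolution 2.0. Of the alternatives added after seeing the data, the largest round spermatid cluster alone gave 5, 4, 0 and 0 for the first 4 comparisons, and leaving out its clusters of few UMIs gave 2 for R against UC and 0 for R against VC-R. Leaving out 1 library at a time gave 7 to 12, 8 to 14, 3 to 6, 1 to 7, 0 to 0 and 4 to 9, where a lone remaining VC-T library is assumed to vary like the other group. R against UC had 3 and R against VC-R 1 without R 3, and R against VC-R had 1 without VC-R 2 or VC-R 3 and 7 without VC-R 1. Leptotene/zygotene was the highest stage for 7 of 9 members with cells of at least 2000 UMIs and at resolution 2.0, and for 8 in the other alternatives. The cause of these moves was not tested.

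Replicate numbers did not pair the samples: correlations of same-numbered libraries' deviations ran from -0.57 to 0.54 in pachytene and all germ cells, and not every pair of a comparison exceeded 0.1. With the replicate block, 55 of 63 calls (stages, all spermatocytes, all germ cells and the contrast of times) kept their side of the threshold and 8 did not, and no direction turned.

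Among values that were called or at least 0.5 in size, directions turned as follows, in log2 fold. Drawing equal cells turned, in all germ cells of T against UC, Sycp2 (-0.068), Hormad1 (-0.031), Tex12 (-0.17), Sycp3 (-0.048) and Syce3 (0.17). The same draw turned, in all germ cells of T against VC-T, Sycp2 (-0.13), Hormad1 (-0.038), Syce2 (0.18), Sycp3 (-0.23) and Syce3 (0.037), Syce1 in round spermatids (-0.059) and Syce2 in all spermatocytes (0.24), and in the contrast of times Syce1 in round spermatids (-0.20) and in all germ cells Sycp2 (-0.18), Hormad1 (-0.12), Syce2 (0.39) and Sycp3 (-0.20). Library totals turned Syce3 in all germ cells of T against UC (0.24). Over all tested values they turned 33, of which 1 was called with TMM (that one), 2 with library totals (that one and Syce3 in round spermatids of T against UC, -0.050 to 0.20) and 31 with neither. In pachytene, leaving out UC 1 turned Syce2 in T against UC (0.047, and -0.95 at the lowest over left-out libraries) and R against UC (0.11, and -0.85), as did leaving out the cluster with no T cell (0.071 and 0.011). The largest round spermatid cluster alone turned Syce1 in T against UC (-0.0019) and T against VC-T (-0.14) and Syce3 in R against UC (0.028). Resolution 2.0 turned Hormad2 in diplotene/dividing cells (-0.26) and Syce2 in all spermatocytes (0.18) of T against VC-T. The 11 to 25 leptotene/zygotene cells per T library limit what that stage can show.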

Other observations

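The VC-T 1 library, left out of the comparisons, was measured at 591 CPM of Hormad1, 1773 of Sycp1 and 525 of Syce1 in leptotene/zygotene cells, against 1075 and 1291, 3438 and 3322, and 287 and 264 CPM in VC-T 2 and VC-T 3. In its pachytene cells Hormad2 was at 44.4 CPM, against 26.5 and 22.4. Its 1980 pachytene cells gave a Sycp3 level of 464 CPM, against 435 and 455.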
